A study of Mus musculus with 4 samples.

Results

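Subicular and entorhinal excitatory neuron nuclei were picked out of a sort of neuronal nuclei from the mouse hippocampus by 6 genes, and 84 of the 615 neuronal nuclei kept, or of the 1130 nuclei kept in all 4 libraries of the series, met the rule. A member had at least 2 of Fn1, Nts, Slc17a6, Tshz2, Tle4 and Rxfp1 on. It also had fewer than 2 of 5 genes of CA1 pyramidal neurons (Wfs1, Fibcd1, Spink8, Mpped1, Pou3f1), fewer than 3 of 9 genes of dentate granule neurons and fewer than 2 of the 3 GABA neuron genes Gad1, Gad2 and Slc32a1 on. A gene was on in a nucleus when it had at least 10 reads and at least 50 reads per 1000000 of that nucleus. Wells entered only if they had 50000 reads or more, spread over 1000 genes or more.

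The study compared wild-type mice (NeuN+ WT) with mice carrying Fasn-R1812W, an arginine-to-tryptophan change in fatty acid synthase, which makes palmitate from acetyl and malonyl units. All animals were 8.5 months old. Nuclei were stained for the neuronal protein NeuN, sorted singly into wells and sequenced by Smart-seq2, which copies full-length RNA and carries no molecular identifiers. Another sort took nuclei that had built EdU into their DNA. Each genotype had 1 NeuN+ library, and the labels do not say how many animals it pools, nor whether Fasn-R1812W was carried on 1 or both alleles. Genotype and library cannot be told apart, no test between genotypes was possible, and every interval below covers only the error of counting. PCR copies are not separate molecules.

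The subiculum is the main output station of the hippocampus. It receives CA1 axons and sends excitatory axons to the entorhinal cortex, thalamus, hypothalamus and other targets. The entorhinal cortex and the neighbouring presubiculum are layered like cortex, and their deep and superficial layers hold neurons with different targets. Most cortical excitatory neurons load glutamate into vesicles with VGLUT1, the product of Slc17a7, and some neurons of the subicular region also use VGLUT2, the product of Slc17a6.

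NeuN+ WT held 38 members among 314 kept nuclei, 12.1% with an exact Clopper-Pearson 95% interval of 8.71 to 16.2%. NeuN+ Fasn-R1812W held 46 among 301, 15.3% with an interval of 11.4 to 19.9%. The difference of 3.18 percentage points had a Newcombe interval of -2.27 to 8.68, so a difference in share was not detectable with these numbers of nuclei. Members had a median of 211509 reads in WT and 192318.5 in Fasn-R1812W, with medians of 4699.5 and 4497.5 genes read. Their lowest totals were 50516 and 58630 reads, and 0.203 and 0.105% of their reads came from mitochondrially encoded genes. All 384 well positions carry the same names in both libraries, and 4 positions held a member in both. Expression in those pairs was no more alike than in other pairs, with a median correlation of log counts of 0.375 against 0.403 over all cross-library pairs.

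The following values chose the members and are given as a description. Tshz2, a zinc finger transcription factor, was on in 25 of 38 WT and 36 of 46 Fasn-R1812W members, with a median of 125 CPM (reads per 1000000 nuclear-encoded reads; lowest 0, highest 1215) in WT and of 200.2 CPM (lowest 0, highest 1972) in Fasn-R1812W. Slc17a6 was on in 15 and 24 members, and its pooled level, the summed reads of all members on the same scale, was 359 and 320 CPM in WT and Fasn-R1812W. Fn1, which encodes the matrix protein fibronectin, was on in 12 and 21 members at pooled levels of 302 and 464 CPM. The rule genes were thus on in some members and off in others, and none was on in all of them.

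Rxfp1, the receptor of the peptide relaxin, was on in 25 WT and 17 Fasn-R1812W members, at pooled levels of 631 and 277 CPM. Tle4, a transcriptional co-repressor of deep cortical layers, was on in 16 and 21 members at 173 and 172 CPM. Nts, the precursor of the peptide neurotensin, was on in only 5 and 6 members, and a single Fasn-R1812W nucleus carried 59.9% of its reads there. In the nuclei that met the CA1 or granule neuron rule, pooled levels of Fn1, Nts, Slc17a6 and Rxfp1 were at most 20.9 CPM. Tle4 was the exception among granule nuclei, where it was on in 32 of 123 nuclei of the WT library and 17 of 77 of the Fasn-R1812W library. Tshz2 stood at 71.5 CPM in WT CA1 nuclei, of which 1 nucleus gave 74.1%.

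**Figure D1:**
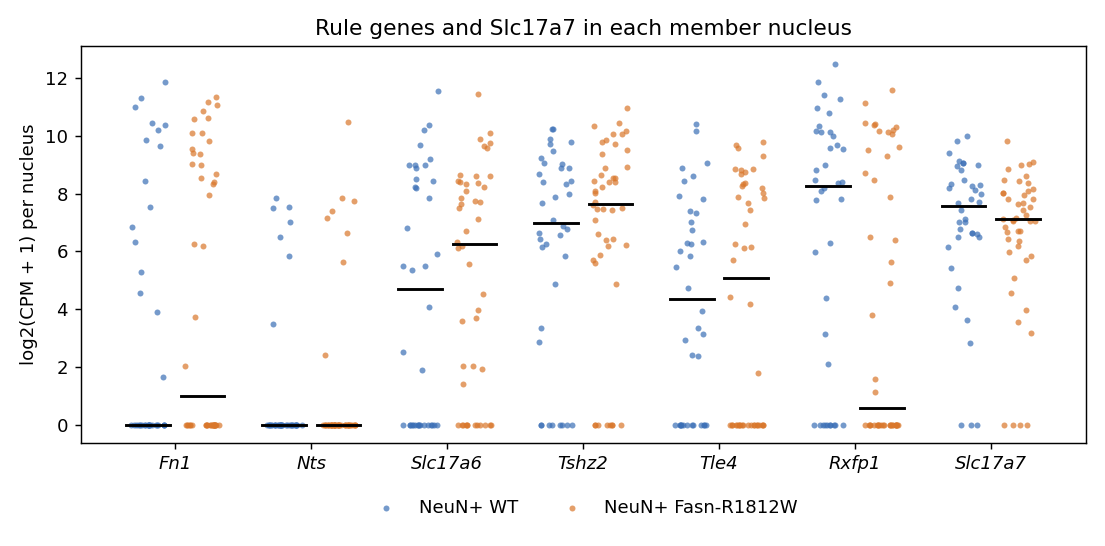
Level of the 6 rule genes and of Slc17a7 in each member nucleus, as log2 of CPM plus 1 on the vertical axis, by library (blue, NeuN+ WT, 38 nuclei; orange, NeuN+ Fasn-R1812W, 46 nuclei); black bars are medians. Each rule gene is spread between 0 and high values, whereas Slc17a7 was read in 35 and 42 of the nuclei.

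Members just inside the threshold, with exactly 2 genes on, numbered 22 in WT and 25 in Fasn-R1812W, and their second gene stood at medians of 212 and 244 on the scale of 1000000 reads. In the 24 and 20 nuclei just outside, with 1 gene on and no other class met, the second gene stood at medians of 4.43 and 0 on that scale. A further 11 WT and 7 Fasn-R1812W nuclei with 2 or more rule genes on were kept out by CA1 genes.

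The exclusion rule left nuclei with a trace of other classes. Mpped1, counted by the rule as a CA1 gene, stood at pooled levels of 258 and 122 CPM in WT and Fasn-R1812W members, against 251 and 170 CPM in CA1 nuclei. One CA1 gene was on in 24 of 38 and 18 of 46 members. Only 6 WT and 16 Fasn-R1812W members had no CA1, granule or GABA gene on.

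The label was compared with further genes. All 38 and all 46 members had reads of the neuronal genes Syt1, Snap25 and Snhg11, and Slc17a7 was read in 35 WT and 42 Fasn-R1812W members, with medians of 188 and 137 CPM. Slc17a7 and the rule gene Slc17a6 were both on in 13 WT and 15 Fasn-R1812W members, a count that the rule bears on. By the same limits Slc17a7 was on in 29 WT and 32 Fasn-R1812W members. Neither gene was on in 7 WT and 5 Fasn-R1812W members, for which these transporters do not bear out the name excitatory. A GABA gene was on in 8 WT and 5 Fasn-R1812W members. Of 7 excitatory genes compared with CA1 nuclei, 1 (Tbr1) was 2-fold higher in members in both libraries and 1 (Camk2a) lower. These counts stand beside 4.48% of all genes higher and 5.18% lower. Camk2a had 415 and 434 CPM in members, 900 and 1115 CPM in CA1 nuclei and 1172 and 993 CPM in granule nuclei. In the nuclei that met the GABA rule it had 311 and 213 CPM.

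Of 12 further subicular genes, 4 passed the filter on low values, which asked for 10 CPM and a read in 20% of nuclei. Whrn, which encodes the scaffold whirlin, had 92.3 and 28.5 CPM in WT and Fasn-R1812W members, and at most 1.05 CPM in CA1 and granule nuclei, but 76.8 and 73.6 CPM in the nuclei that met the GABA rule. Cntn6, a contactin adhesion protein, had 76.3 and 105.8 CPM in members and at most 8.34 CPM in CA1 and granule nuclei, but 89.0 and 3.90 CPM in GABA nuclei. Ndst4 was lower in members, with 26.1 and 39.8 CPM against 105 and 166 CPM in CA1 nuclei. In granule nuclei Ndst4 had 68.7 and 54.4 CPM. Bcl6 had 44.4 and 23.0 CPM in members against 49.3 and 42.5 CPM in CA1 nuclei. Markers of several cortical layers were also present, so the members were a mixture, and the data do not divide them into subicular and entorhinal nuclei.

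Markers of other cell types were read to different degrees. Lhx5, a gene of Cajal-Retzius neurons, and Gbx2 and Shox2 of thalamic neurons had no read in any member, but other genes of these lists were read. At least 1 Cajal-Retzius gene was on in 1 of 38 WT and 4 of 46 Fasn-R1812W members. At least 1 thalamic gene was on in 3 WT and 2 Fasn-R1812W members, with a highest summed level of 157 and 1054.5 CPM. None of the 6 Cajal-Retzius, 5 thalamic, 6 oligodendrocyte precursor or 7 endothelial and mural genes passed the filter within members. At least 1 of 11 oligodendrocyte genes was on in 19 of 38 WT and 28 of 46 Fasn-R1812W members, with summed pooled levels of 143 and 253 CPM against 270 and 138 CPM in CA1 nuclei. The summed levels were 147 and 105 CPM for 6 genes of CA3 neurons, 99.6 and 252 CPM for 5 genes of CA2 neurons and 289 and 477 CPM for 10 genes of interneuron types. The last stood at 8570 and 7908 CPM in GABA nuclei. At least 3 of 12 astrocyte genes were on in 9 of 38 WT and 16 of 46 Fasn-R1812W members, compared with 8 of 49 and 12 of 66 CA1 nuclei and 15 of 123 and 16 of 77 granule nuclei. The summed level of the 12 genes ranged from 84.4 to 3396 CPM in WT members and from 0 to 4090 CPM in Fasn-R1812W members, with medians of 1060 and 1022 CPM. Slc1a2, Clu and Aldoc gave most of it, Agt had no read, and pooled levels of Aqp4 were 7.41 and 16.4 CPM, of Gja1 20.8 and 0.0901 CPM and of Gfap 16.7 and 3.42 CPM.

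The rule genes came on in recurrent pairs. Slc17a6 and Tshz2 were on together in 35 of the 84 members, 11 in WT and 24 in Fasn-R1812W, and every Fasn-R1812W member with Slc17a6 on also had Tshz2 on. Fn1 and Rxfp1 were on together in 22 members, 11 in each library, and Tshz2 and Tle4 in 24. Since membership asked for at least 2 genes on, a member with one gene off had to have others on, and pair counts within members carry that constraint.

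**Figure D2:**
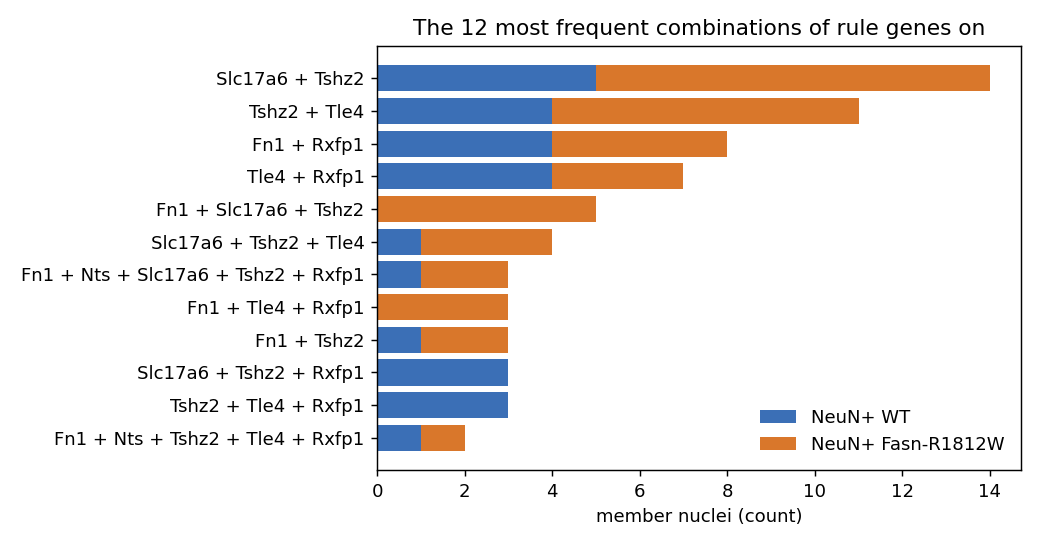
Number of member nuclei, on the horizontal axis, with each of the 12 most frequent sets of rule genes on, stacked by library (blue, NeuN+ WT; orange, NeuN+ Fasn-R1812W). The pair of Slc17a6 and Tshz2 alone was the most frequent, with 14 nuclei, followed by Tshz2 with Tle4 in 11.

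To read each rule gene free of its own part in the choice, members were chosen anew by the other 5. Among these, Rxfp1 was on in 15 of 28 nuclei in the WT library, 53.6%, and in 10 of 39 in the Fasn-R1812W library, 25.6%. The difference of -27.9 percentage points had a Newcombe interval of -48.1 to -4.40, the only one of 6 such intervals without 0, and none was adjusted for the number compared. These intervals cover only the counting of nuclei from 1 library per genotype and do not test genotype. Tshz2 was on in 50% of 26 WT nuclei and in 64.3% of 28 from Fasn-R1812W, Slc17a6 in 28.1 and 40.5%, Fn1 in 21.2 and 37.5% and Tle4 in 21.4 and 30.6%. Nts was on in 4 of 37 and 6 of 46 nuclei. In granule nuclei chosen the same way Tle4 was on in 26.0 and 22.1%, in WT more than in members. The other rule genes were on in at most 0.813% of granule nuclei. In CA1 nuclei chosen the same way no rule gene was on in more than 11.8%.

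Members were then compared with the 49 WT and 66 Fasn-R1812W nuclei that met the CA1 rule and the 123 and 77 that met the granule rule, within each library. The rule drew this contrast itself, so the comparison is a description. Of 8299 genes compared with CA1 nuclei, 372 (4.48%) were at least 2-fold higher in members in both libraries and 430 (5.18%) at least 2-fold lower. Against granule nuclei the shares of 7987 genes were 7.91% higher and 7.14% lower. Against both classes at once, 182 of 7675 genes (2.37%) were higher in members and 137 (1.79%) lower.

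Among the genes lower than in both classes was Zbtb20, a transcriptional repressor known for its part in setting the fate of hippocampal pyramidal and granule neurons. Its median was 14.1 CPM in WT members (lowest 0, highest 4593) and 14.1 CPM in Fasn-R1812W members (lowest 0, highest 2825). In CA1 nuclei the medians were 2170 and 2400 CPM, and in granule nuclei 3231 and 3149 CPM. All but 1 member of each library lay below the CA1 median. That 1 nucleus carried 68.4% of the members' Zbtb20 reads in WT and 58.2% in Fasn-R1812W, and without it the pooled levels were 61.0 and 62.8 CPM. GABA nuclei were also low, with pooled levels of 96.0 and 141 CPM.

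Subunits of fast glutamate receptors divided in the same comparison. Gria1, an AMPA receptor subunit, had a median of 211 CPM in WT members (lowest 0, highest 2150) and 180.3 CPM in Fasn-R1812W members (lowest 0, highest 1915), against 1708 and 1622 CPM in CA1 nuclei and 1327 and 1288 CPM in granule nuclei. Of the members, 15 of 38 and 30 of 46 lay below the lowest CA1 nucleus of their library, so the groups overlapped in part. Grin2a, an NMDA receptor subunit, had pooled levels of 309 and 466 CPM in members against 1348 and 1289 CPM in CA1 nuclei and 1292 and 951 CPM in granule nuclei. Gria4, another AMPA subunit, went the other way, with pooled levels of 447 and 291 CPM in members, 110.3 and 102 CPM in CA1 nuclei and 43.6 and 60.9 CPM in granule nuclei. GABA nuclei had more Gria4 than members, with 732 and 832 CPM. The metabotropic receptors Grm8 and Grm4 were likewise higher in members than in both classes, although in WT a single nucleus gave 51.5 and 77.5% of their reads. Of 19 glutamate receptor genes compared with CA1, 5 were 2-fold higher and 3 lower, beside 4.48 and 5.18% of all genes. Of 19 compared with granule nuclei, 3 were higher and 4 lower, beside 7.91 and 7.14% of all genes. The list's median log2 ratios were near those of all genes, at -0.01 and -0.09 against CA1 in WT and Fasn-R1812W, where all genes had 0.00 and -0.01.

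Transcription factors that mark cortical layers were spread unevenly. Of 22 compared with CA1 nuclei, 7 were 2-fold higher in members in both libraries and 3 lower; against granule nuclei 8 of 21 were higher and 5 lower, and both counts include Tshz2 and Tle4, which the rule used. The shares over all genes were 4.48% higher and 5.18% lower against CA1 and 7.91 and 7.14% against granule nuclei. Nr4a2, a nuclear receptor of deep cortical and subicular neurons, had 249 and 325 CPM in members, 75.5 and 120 CPM in CA1 nuclei and 49.5 and 23.6 CPM in granule nuclei. Tshz3, a relative of Tshz2, had 152 and 85.4 CPM in members, at most 17.8 CPM in CA1 and granule nuclei and 49.6 and 75.0 CPM in GABA nuclei. Cux2, a factor of upper cortical layers, had 74.4 and 32.3 CPM in members and at most 5.66 CPM in CA1 and granule nuclei, from 10 of 38 and 15 of 46 members with a read. GABA nuclei had 65.7 and 116 CPM of Cux2. Nr3c2, the mineralocorticoid receptor, was lower in members, with 25.4 and 32.4 CPM against 103 and 99.8 CPM in CA1 nuclei and 128 and 67.6 CPM in granule nuclei.

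The genes of single cortical classes were read in some members and not in others. Vwc2l, a marker of near-projecting deep-layer neurons, was read in 9 WT and 19 Fasn-R1812W members at 96.5 and 105.1 CPM, with at most 7.05 CPM in CA1, granule and GABA nuclei. Garnl3 and Hs3st4, genes of layer 6 corticothalamic neurons read in 22 and 19 WT and in 19 and 16 Fasn-R1812W members, were at 228 and 112 CPM and at 144 and 107 CPM in members. In CA1 nuclei Garnl3 had 29.6 and 50.8 CPM and Hs3st4 28.1 and 39.8 CPM. GABA nuclei had 124 and 166 CPM of Garnl3, more than members in Fasn-R1812W, and 17.5 and 2.39 CPM of Hs3st4. Fezf2, a determinant of deep-layer projection neurons, had 88.5 and 103 CPM in members, 76.4 and 43.7 CPM in CA1 nuclei and at most 4.04 CPM in granule nuclei. Some other listed genes went the other way. Etv1, of the near-projecting list, had 89.8 and 171 CPM in members against 236 and 213 CPM in CA1 nuclei. Crym, of the layer 5 and layer 6 lists, had 106 and 221 CPM against 448 and 473 CPM. Against CA1 nuclei, 1 of 4 near-projecting, 2 of 3 layer 6 and 0 of 6 layer 5 genes were 2-fold higher in both libraries. The counts lower were 0, 1 and 1, beside 4.48% of all genes higher and 5.18% lower.

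**Figure D3:**
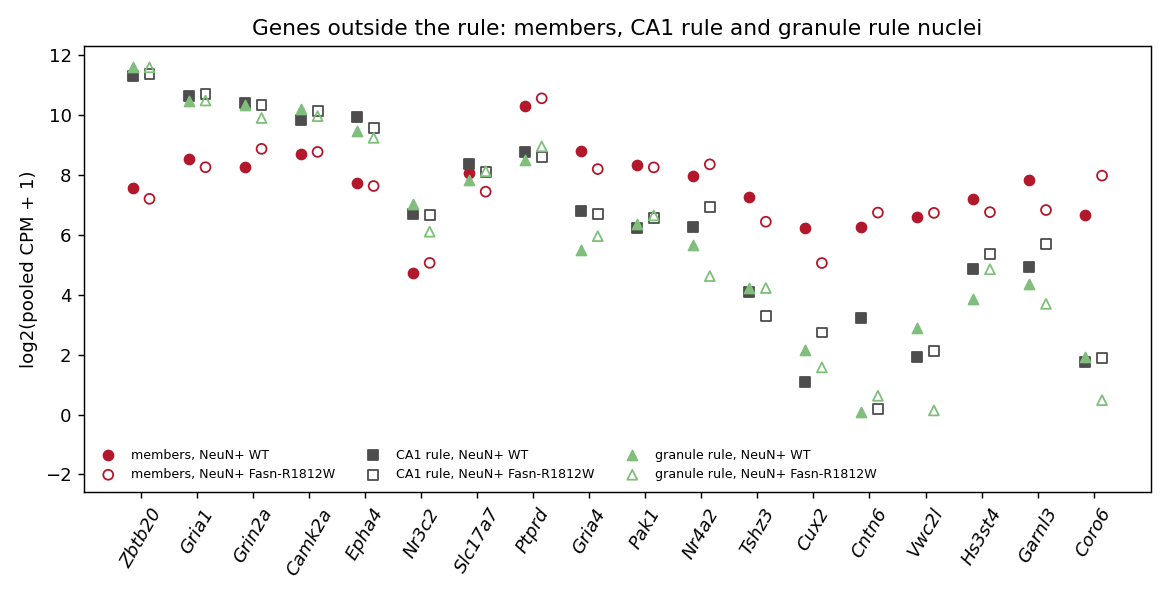
Pooled level of 18 genes outside the rule's lists, as log2 of CPM plus 1 on the vertical axis, in members (red circles), CA1 rule nuclei (grey squares) and granule rule nuclei (green triangles); filled symbols are NeuN+ WT and open symbols NeuN+ Fasn-R1812W. Zbtb20, Gria1, Grin2a and Epha4 sit lower in members than in CA1 and granule nuclei, and Gria4, Nr4a2, Tshz3 and Coro6 sit higher.

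Genes outside the rule that met the naming limits were ranked by the smallest of the 4 log2 ratios, and Coro6 stood first. It encodes a coronin, a family of actin-binding proteins, and lies on chromosome 11 at 77462411 to 77470484 on the plus strand (GRCm38, GENCODE M21). Its pooled level was 100.2 and 250.1 CPM in WT and Fasn-R1812W members, against at most 2.78 CPM in CA1 and granule nuclei. GABA nuclei had more, with 224 and 471 CPM, so Coro6 did not set members apart from them. Reads came from 18 of 38 and 35 of 46 members. Ptprd, a receptor phosphatase that organises synapses, on chromosome 4 at 75941238 to 78211961, was read in every member, with medians of 970.2 and 1444 CPM. The medians of Ptprd were 238 and 260 CPM in CA1 nuclei and 309 and 443 CPM in granule nuclei. Pak1, a kinase that acts on actin downstream of small GTPases, had 320 and 303 CPM in members, at most 99.1 CPM in CA1 and granule nuclei and 56.3 and 194 CPM in GABA nuclei.

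The other 12 genes named by that ranking were Mroh1, Gria4, Arap2, Ccdc136, Syngr1, Peg3, Slc1a2, Fut9, Pcdh9, Fnbp1l, Ano8 and Tmsb10, with smallest log2 ratios from 0.99 to 1.65. Of the 15 genes, 5 (Coro6, Gria4, Ccdc136, Syngr1 and Peg3) had higher pooled levels in GABA nuclei than in members in both libraries, and Mroh1 and Fnbp1l had them in Fasn-R1812W. Slc1a2, the glutamate transporter best known from astrocytes, had 891 and 660 CPM in members, 163 and 156 CPM in CA1 nuclei and 312 and 293 CPM in granule nuclei. Members with fewer than 3 astrocyte genes on still had 873 and 620 CPM, against 150 and 128 CPM in such CA1 nuclei and 309 and 179 CPM in such granule nuclei.

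Genes of cholesterol synthesis, which like fatty acid synthesis draws on acetyl units, were more often higher than lower in members. Against CA1 nuclei 4 of 16 were 2-fold higher in both libraries and 0 lower, and against granule nuclei 5 of 15 were higher and 0 lower; these shares stand beside 4.48 and 7.91% of all genes. The list's median log2 ratios were 0.60 and 0.84 against CA1 and 0.77 and 1.69 against granule nuclei. Insig1, a sterol sensor of the endoplasmic reticulum, had 88.0 and 55.2 CPM in members and 36.8 and 24.6 CPM in CA1 nuclei. Hmgcs1, an early enzyme of the route, had 167 and 119 CPM in members and 51.1 and 27.4 CPM in CA1 nuclei. Hmgcs1 was read in 21 of 38 and 21 of 46 members, and 1 nucleus gave 34.3 and 39.7% of its reads. No gene of the fatty acid synthesis list was 2-fold apart from CA1 in both libraries, of 9 compared. Against granule nuclei 2 of 10 were higher and 2 lower, beside 7.91 and 7.14% of all genes.

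Members with and without a rule gene on were also compared with each other, over 125 listed genes for each of 5 rule genes. A gene was named when its pooled ratio had a log2 value of at least 1.5 in the same direction in both libraries and when its level, the share of nuclei with a read and the reads of any single nucleus passed limits set after the values had been seen. Of 625 ratios, 25 were named, from 1.6% for Tle4 to 6.4% for Slc17a6. No test was made, because the nuclei of each library share its source.

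Of 8 listed genes of layer 2 to 5 intratelencephalic neurons, 5 were at least 2-fold higher in both libraries in members with Slc17a6 on and 0 lower, beside 11.2% of the 125 genes higher. Calb1, which encodes the calcium buffer calbindin, stood at 222 CPM in WT members with Slc17a6 on and 16.7 CPM in those with it off, and at 20.8 and 1.91 CPM in Fasn-R1812W. Slc30a3, the transporter that loads zinc into vesicles, stood at 214 against 32.1 CPM and at 94.7 against 4.2 CPM. Cux2 stood at 134 against 27.2 CPM and at 52.1 against 10.1 CPM, and the peptide Cck at 1199.8 against 405 CPM and at 1768 against 416 CPM. Pcp4, a calmodulin-binding protein, went the other way, with 130 against 516 CPM in WT and 36.7 against 485 CPM in Fasn-R1812W. In the Fasn-R1812W library a single nucleus gave 48.4% of all Cck reads of members. With Slc17a6 on, 1 nucleus gave 57.4 and 52.5% of the Calb1 reads in WT and Fasn-R1812W. For Slc30a3 these shares were 51.0 and 56.2%, and for Cux2 51.1 and 31.5%. For Pcp4 with Slc17a6 off they were 19.7 and 55.6%.

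Members with Fn1 on had Ndst4, a heparan sulfate-modifying enzyme known from the subiculum, at 103 against 0.479 CPM in WT and at 83.8 against 0.512 CPM in Fasn-R1812W. Their Calb1 levels were 1.43 against 143 CPM and 2.29 against 20.5 CPM, the reverse of the order for Slc17a6. With Fn1 off, 1 nucleus gave 52.6% of the Calb1 reads in WT and 53.3% in Fasn-R1812W. A member with Fn1 off had to have at least 2 of the other 5 rule genes on, so the splits by Fn1 and Slc17a6 are not independent. Members with Rxfp1 on had more Bcl6, a transcriptional repressor, with 69.0 against 8.25 CPM and 55.4 against 8.25 CPM. They had less Vwc2l, with 18.9 against 210.2 CPM and 37.5 against 136 CPM. With Tshz2 on, Vwc2l was higher, at 142 against 11.1 CPM and 133 against 4.97 CPM.

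The listed genes named for Tle4 were both lower in members with it on. Bcl6 stood at 1.58 against 79.8 CPM in WT and at 7.13 against 36.2 CPM in Fasn-R1812W. Cux2 stood at 7.93 against 129 CPM and at 3.56 against 56.2 CPM. Of 8 listed genes of layer 6 corticothalamic neurons, 3 (Foxp2, Hs3st4 and Rprm) were at least 2-fold higher in both libraries with Tle4 on and 0 lower, beside 12% of the 125 genes higher. Hs3st4 was read in 11 of 16 WT members with Tle4 on and 8 of 22 with it off, and in 14 of 21 and 2 of 25 Fasn-R1812W members. Its pooled level was 250 against 55.9 CPM in WT and 234 against 0.496 CPM in Fasn-R1812W. Foxp2, a transcription factor of layer 6, stood at 131 against 0.437 CPM and at 39.6 against 0.662 CPM, from 7 and 4 nuclei with Tle4 on. In Fasn-R1812W 1 nucleus gave 60.8% of the Hs3st4 reads and 83.8% of the Foxp2 reads. Foxp2 and Hs3st4 were singled out after their values had been seen.

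**Figure D4:**
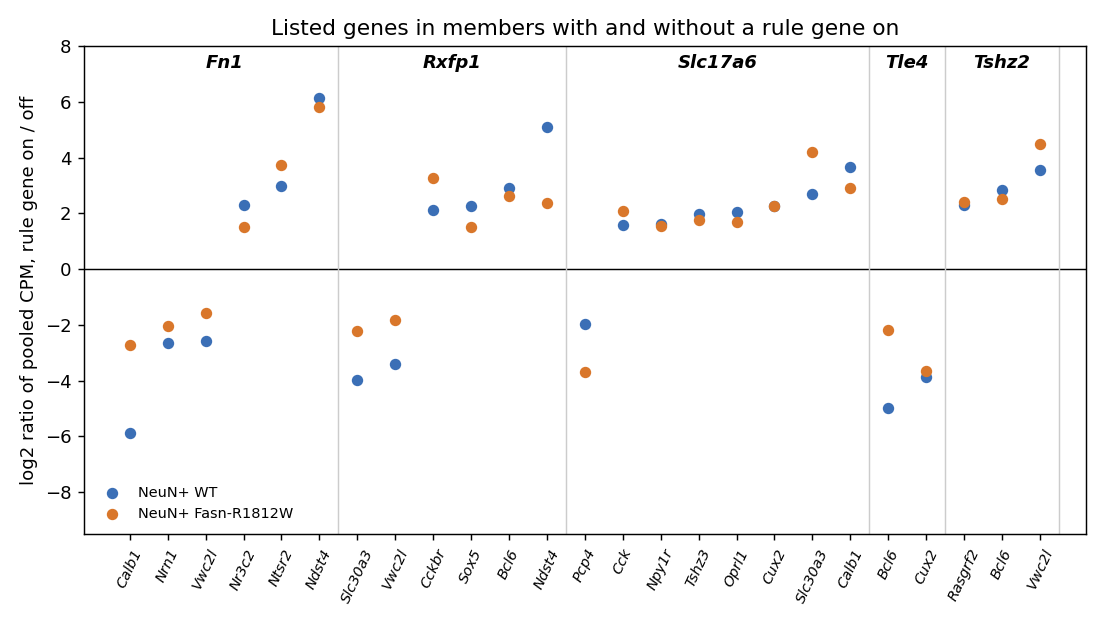
Log2 ratio of pooled CPM in members with a rule gene on over members with it off, on the vertical axis, for the 25 listed genes named, grouped by the rule gene written above them; blue points are NeuN+ WT and orange points NeuN+ Fasn-R1812W. Each named gene has both points on the same side of 0, as the naming rule required.

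Between the genotypes within members, 8850 genes passed the filter, of which 1353 (15.3%) were at least 2-fold higher in Fasn-R1812W, 1308 (14.8%) at least 2-fold lower and 2661 (30.1%) either. With 38 and 46 nuclei per pool, a 2-fold difference between the 2 libraries was thus common. The median log2 ratio was 0.00. Fasn itself had 53.5 and 33.3 CPM in WT and Fasn-R1812W members, from 7 and 8 nuclei with a read, too few to pass the filter. A single nucleus gave 58.4 and 37.0% of the Fasn reads, and without it the levels were 23.0 and 21.8 CPM. Since the allele is a substitution, a count of reads does not check it.

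Among the genes higher in Fasn-R1812W members that met the naming limits, Tmem38a had the largest ratio. It encodes a cation channel of the endoplasmic reticulum and lies on chromosome 8 at 72572055 to 72587282. Its median was 4.29 CPM in WT members (lowest 0, highest 427) and 121 CPM in Fasn-R1812W members (lowest 0, highest 1609), with pooled levels of 47.0 and 247 CPM and a log2 ratio of 2.37. The groups overlapped, with reads in 20 of 38 and 34 of 46 members. Habp4, an RNA-binding protein, had pooled levels of 52.9 and 237 CPM, a log2 ratio of 2.14. Map7, a microtubule-binding protein, was read in 22 of 38 WT members at a median of 6.49 CPM and in 40 of 46 Fasn-R1812W members at 206 CPM.

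Of the genes lower in Fasn-R1812W that met the naming limits, Ubxn8 had the largest ratio. It encodes a protein of the endoplasmic reticulum that recruits the ATPase p97. Reads came from 20 of 38 WT members, with a highest value of 312 CPM, and from 8 of 46 Fasn-R1812W members, with a highest value of 43.8 CPM. Pooled levels were 46.0 and 3.79 CPM, a log2 ratio of -3.30. Nadk, the kinase that makes NADP, had 147 and 35.0 CPM, a log2 ratio of -2.04. Masp2, a protease of the complement lectin pathway, was read in 29 of 38 and 20 of 46 members at 95.4 and 26.7 CPM.

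Subunits of respiratory complex I appeared on both sides of the ranking. Ndufb11 had 42.1 and 143 CPM in WT and Fasn-R1812W members, and Ndufb9 had 19.1 and 66.2 CPM. Ndufa1 had 249.7 and 62.3 CPM. In CA1 and granule nuclei the 3 genes had log2 ratios between -0.19 and 0.26, and in GABA nuclei Ndufb11 had 0.77, Ndufb9 0.43 and Ndufa1 0.18. The ranking also held Dmac2, Nrip3, Dhps, Abcg4 and Abcd3 as higher, and March8, Kat14, Nbas, Slc35f4, Usp29 and Nkain2 as lower, with log2 ratios from 1.68 to 2.08 and from -2.01 to -1.81.

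**Figure D5:**
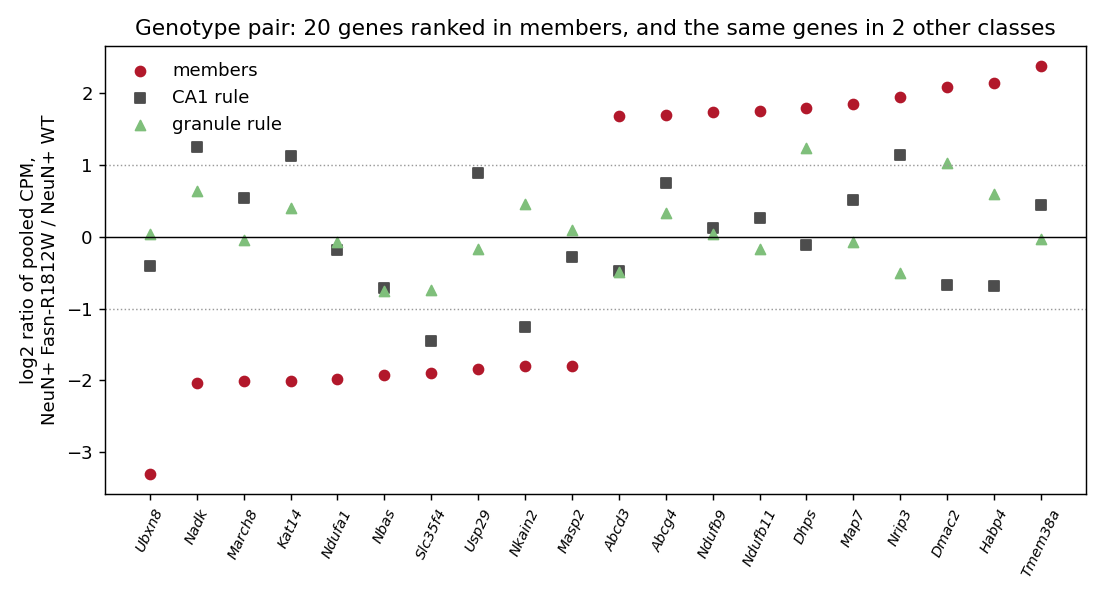
Log2 ratio of pooled CPM, NeuN+ Fasn-R1812W over NeuN+ WT, on the vertical axis, for the 20 genes with the largest ratios within members that met the naming rule (red circles), and for the same genes in CA1 rule (grey squares) and granule rule nuclei (green triangles); dotted lines mark 2-fold. The members' ratios run from -3.30 for Ubxn8 to 2.37 for Tmem38a, and were chosen for their size in members alone.

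Across the lists, layer 2 to 5 intratelencephalic genes had a median log2 ratio of -1.14 over 6 genes, with 4 lower and 1 higher in Fasn-R1812W. Layer 6 corticothalamic genes had a median of -1.02 over 5 genes, with 3 lower and 1 higher. The 7 excitatory genes had -0.61, with 2 lower and 0 higher. Near-projecting genes went the other way, at 0.64 over 4 genes, with 1 higher and 0 lower. These counts stand beside 14.8% of all genes lower and 15.3% higher. Calb1 had 107 and 11.9 CPM, each from 13 nuclei with a read, and a single nucleus gave 52.4 and 48.5% of those reads. Tbr1, a transcription factor of cortical glutamatergic neurons, was read in 20 of 38 WT members at 190.4 CPM and in 11 of 46 Fasn-R1812W members at 46.9 CPM, where 1 nucleus gave 65.4%. Adcyap1, the precursor of the peptide PACAP, was read in 9 WT members at 102 CPM and in 1 Fasn-R1812W member at 11 CPM. Amigo2, a gene of CA2 and of other hippocampal neurons, had 20.8 and 136 CPM, of which 1 nucleus gave 74.1 and 62.5%. The mixture of member types in a library and the level per nucleus of one type cannot be told apart in these pooled values.

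Genes of lipid metabolism were read beside the 15.3% of all genes higher and 14.8% lower between genotypes. Of 12 fatty acid synthesis genes, Elovl1 and Elovl4 were at least 2-fold higher in Fasn-R1812W and Elovl5, Me1 and Srebf1 lower, with a list median of -0.26. Of 16 cholesterol synthesis genes, 2 were higher and 1 lower, with a median of -0.04. Of 7 fatty acid oxidation genes, Etfdh was higher and Hadhb lower, with a median of 0.60, and 6 of 7 lay above 0. Of 20 phospholipid and sphingolipid genes, 3 were higher and 1 lower, with a median of -0.05.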

How the data were processed

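The 4 count tables hold 25567 genes and 384 wells each, whereas the study states 382 nuclei per library. The deposited values are read counts per gene and well with no normalization, as the authors left them. The tools named in the submitters' processing notes are Trimmomatic 0.36 for trimming and STAR 2.5.3a for alignment, with the build GRCm38.p5. Which program, annotation and strand setting gave the counts is not given in the sources used here, so reads of antisense partners and of close copies cannot be told apart. Per the labels, each library is 1 genotype and 1 sort, and embryonic nuclei were not analysed here.

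The WT library had 71221156 reads over all wells and the Fasn-R1812W library 72468235. Counts were summed over the nuclei of a class and divided by nuclear-encoded reads to give CPM, and log2 ratios were taken after adding 1 CPM. Genes with 10 CPM and a read in 20% of nuclei in either pool were compared. CA1 rule nuclei had at least 2 CA1 genes and granule rule nuclei at least 3 granule genes on, with the other classes below their limits. Genes ranked for naming needed 20 CPM, a read in 40% of members and at most 20% of the reads from any 1 nucleus of the higher pool (in both libraries for the class comparison). Genotype genes also needed the same direction in mean CPM per nucleus and in the share with a read after thinning to 50000 reads. The 15 genes highest against both classes and the 10 genotype genes in each direction are named, besides the rule genes, Fasn and listed genes. The 42 lists hold the genes described by group. Doublets were not called; an alternative dropped the 5% of wells with the most genes. With 1 library per group there is no test and no p-value. Intervals are exact Poisson, exact Clopper-Pearson or Newcombe at 95%, and a count of 0 allows up to 3 reads.

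The members and lists were chosen with earlier results of these data known. Alternatives were other well, gene and on limits, rules leaving out each gene, thinning, mean CPM, a prior of 0.1 CPM, and scaling factors of edgeR 4.0.16 and DESeq2 1.42.0 in R 4.3.3. Ratios were tested on simulated counts. Python 3.11.15, numpy 2.4.6, scipy 1.17.1, pandas 2.3.3 and matplotlib 3.10.9 were used.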

Additional observations from a re-analysis of the deposited data

Results flagged for a closer look

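Of the 20 genes ranked between genotypes, 3 had opposite directions in members and in both the CA1 and the granule rule nuclei. Abcg4, Ndufb9, Ndufa1, Nbas and Slc35f4 went the same way in members and in both classes, and the rest were mixed. The share of all genes with opposite directions was not counted. Abcd3, a transporter of the peroxisome membrane, had a log2 ratio of Fasn-R1812W over WT of 1.678 in members, -0.48 in CA1 rule nuclei and -0.49 in granule rule nuclei. Nadk had -2.041 in members, 1.25 in CA1 and 0.64 in granule nuclei. Kat14, a subunit of an acetyltransferase complex, had -2.004 in members, 1.13 in CA1 and 0.41 in granule nuclei. In GABA rule nuclei the 3 genes went the way of members, with log2 ratios of 1.04 for Abcd3, -0.53 for Nadk and -0.60 for Kat14. The genes were ranked for their size in members, each class is 1 pool per library, and the difference between classes was not tested.

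In the libraries of nuclei sorted for EdU, 4 of 348 kept EdU+ Fasn-R1812W wells met the member rule, 1.15% with an exact Clopper-Pearson interval of 0.314 to 2.92%, beside 3 of 167 EdU+ WT wells, 1.80% with an interval of 0.372 to 5.16%. The share in EdU+ WT was no lower. These wells entered no comparison.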

How the results depend on the processing

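With at least 3 of the 6 genes on, members made up 5.10% of WT and 6.98% of Fasn-R1812W nuclei and 2082 genes were 2-fold higher in Fasn-R1812W. With no CA1, granule or GABA gene on, the shares were 1.91 and 5.32%, 6 and 16 nuclei. In this setting alone the interval of the difference, 3.40 percentage points, lay above 0, at 0.424 to 6.71. It covers only the counting of nuclei and does not test genotype. There 3255 genes were higher and 1995 lower, the median log2 ratio was 0.42 and 62% of the genes 2-fold apart were higher, against 50.8% before. The rule without Tshz2 gave shares of 8.28 and 9.30%. Leaving out members with 3 or more astrocyte genes on, a choice made after seeing the data, gave 9.24% in WT and 9.97% in Fasn-R1812W. The difference in share was then 0.731 percentage points, and 1622 genes were higher and 1900 lower in Fasn-R1812W. After thinning, 866 genes were lower. With no gene filter 3565 were higher and 3236 lower between genotypes, and 1108 and 1481 were higher than in CA1 and granule nuclei. With 20 CPM and 40% of nuclei these counts were 542, 515, 167 and 313.

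The ratios of the 20 ranked genotype genes kept their direction in 238 of 240 values, and 5 genes (Abcg4, Habp4, Tmem38a, Ubxn8 and Usp29) were 2-fold apart in the same direction in all 12 settings. Part of this was fixed in advance. The naming rule had required the same direction in mean CPM per nucleus, which is among these settings, and in the share with a read after thinning. The scaling factors and the prior were applied to the same pooled counts, so these counts are no independent support for the genes. With no other class gene on, Nbas turned to 1.45 and Nkain2 to 3.82, and the smallest ratio against CA1 and granule nuclei turned to -0.94 for Mroh1, -0.73 for Fnbp1l and -1.76 for Ano8. In the same setting the ratio by Fn1 turned for Ndst4 (-0.99, Fasn-R1812W), Nr3c2 (-2.53, WT), Ntsr2 (-2.88, WT) and Calb1 (1.04, Fasn-R1812W). Those of Vwc2l by Rxfp1 (0.16), Oprl1 (-0.52) and Tshz3 (-1.11) by Slc17a6, all in Fasn-R1812W, and of Rasgrf2 by Tshz2 (-0.69, WT) turned as well. With 3 of 6 genes on, Cckbr (-1.59, WT), Vwc2l (4.40, WT) and Slc30a3 (0.51, Fasn-R1812W) by Rxfp1, Npy1r by Slc17a6 (-0.63, WT) and Rasgrf2 by Tshz2 (-3.95, Fasn-R1812W) turned. Single turns in Fasn-R1812W were Calb1 by Fn1 with the strict well filter (0.16), Oprl1 by Slc17a6 with the higher on limit (-0.021) and Bcl6 by Tshz2 after thinning (-1.19). Settings that ask for more genes on or fewer of other classes leave few nuclei; for the rest the cause was not tested.

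No paired analysis was possible because each group has 1 library. The number of nuclei and of libraries limits these values, and no value describes the spread between animals.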

Other observations

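Of 33 genes that guide and adhere axons compared with CA1 rule nuclei, 4 were at least 2-fold higher in members in both libraries and 8 lower, and of 34 compared with granule rule nuclei, 8 were higher and 7 lower. Over all genes the shares were 4.48% higher and 5.18% lower against CA1 and 7.91 and 7.14% against granule nuclei. Epha4, a receptor of ephrins, had 212 and 197 CPM in WT and Fasn-R1812W members, against 978 and 759 CPM in CA1 and 705 and 601 CPM in granule nuclei. Epha7, a related receptor, had 116 and 166 CPM in members, against 368 and 411 CPM in CA1 and 786 and 599 CPM in granule nuclei. Robo2, a receptor of the repellent Slit proteins, had 75.6 and 64.4 CPM in members and at least 177 CPM in CA1 and granule nuclei. Cntn5, a contactin, had 143 and 74.1 CPM in members against 24.8 and 14.1 CPM in CA1 nuclei.

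Of 23 potassium and HCN channel genes, 3 were 2-fold higher than in CA1 nuclei in both libraries and 0 lower, beside 4.48 and 5.18% of all genes. Of 24 compared with granule nuclei, 7 were higher and 2 lower, beside 7.91 and 7.14% of all genes. Of 15 sodium and calcium channel genes, 0 were higher and 1 lower against CA1 nuclei, and 0 higher and 3 lower against granule nuclei. Kcnt1, a sodium-activated potassium channel, had 215 and 328 CPM in members, 80.4 and 68.3 CPM in CA1 and 8.82 and 4.54 CPM in granule nuclei. Scn3b, a sodium channel beta subunit, had 95.7 and 182 CPM in members and at least 525 CPM in CA1 and granule nuclei, but 174.5 and 150 CPM in GABA nuclei. Of 9 activity-regulated genes, 4 were 2-fold higher than in granule nuclei in both libraries and 1 lower, beside 7.91 and 7.14% of all genes. Against CA1 nuclei 0 of 9 were higher and 1 lower, beside 4.48 and 5.18%. Bdnf, among the activity-regulated genes, had 32.9 and 21.9 CPM in members, 68.0 and 163 CPM in CA1 and 182 and 202 CPM in granule nuclei. Between genotypes, 2 of 26 potassium and HCN channel genes were at least 2-fold higher in Fasn-R1812W members and 4 lower, and of 15 sodium and calcium channel genes 2 were higher and 1 lower, beside 15.3 and 14.8% of all genes. Cacna1h, a T-type calcium channel, had 36.2 and 200.7 CPM in members of these libraries, of which 1 nucleus gave 49.5 and 33.3%.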
